A study of Homo sapiens with 6 samples.

Results

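The genes described here are 9 genes of MHC class I antigen presentation, measured by RNA-seq in human RPE1 cells after knockdown of the kinase MK5. They were taken by their gene symbols from a deposited table of 36884 rows, with earlier results of these data known. They are the heavy chain genes HLA-B, HLA-C, HLA-E and HLA-F, the light chain gene B2M, the transporter genes TAP1 and TAP2, the tapasin gene TAPBP and the transactivator gene NLRC5. All 9 were among the 13431 genes tested. RPE1 is an immortalized, non-transformed line derived from human retinal pigment epithelium. In every library both LATS1 and LATS2, the kinases that restrain YAP and TAZ, had been inactivated with CRISPR-Cas9, so the controls lack them as well. One group of 3 libraries came from such cells given control siRNA, the other 3 from cells given siRNA against MK5 (gene MAPKAPK5), each for 48 h. Neither the siRNA sequences nor whether the edited line is a single clone is stated in the labels. The submitters call the libraries biologic replicates. The labels name no separate cultures, so p-values measure only the spread between these libraries, which may be technical.

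MHC class I molecules carry peptides from inside the cell to its surface, where CD8 T cells read them. A polymorphic heavy chain pairs with beta-2 microglobulin in the endoplasmic reticulum. Peptides cut by the proteasome are pumped in by the TAP transporter, a heterodimer of TAP1 and TAP2, and tapasin holds the empty heavy chain beside the transporter until a peptide fits. HLA-B and HLA-C are classical heavy chains. HLA-E presents leader peptides of other class I chains to NK cell receptors, and HLA-F is a nonclassical chain of restricted expression. NLRC5, itself inducible by interferon, has no DNA-binding domain of its own. It acts on class I promoters through a complex of RFX, CREB or ATF and NF-Y proteins that sits on the SXY module. Upstream of that module lie an interferon response element, bound by IRF proteins, and an NF-kB element.

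The bases upstream of 5 of these genes are shown because they carry these elements in different combinations, and because HLA-F and TAP2 were called lower after MK5 siRNA whereas HLA-B, HLA-C and TAP1 were not called. The sequences are RefSeq's, on GRCh38.p14, and each runs 5′ to 3′ over the 250 bases before the annotated start. Windows were held for 7 of the 9 genes. HLA-B lies at chr6:31357180-31357429, HLA-C at chr6:31272093-31272342, TAP1 at chr6:32853705-32853954 and TAP2 at chr6:32838740-32838989, all on the minus strand, and HLA-F at chr6:29723184-29723433 on the plus strand. Capitals mark matches, on either strand, to AANNGAAA (the core of an interferon response element) and GGGNNTNNCC (an NF-kB element). They also mark TGACG (the core of an X2 or CRE element) and CCAAT (bound by NF-Y, written ATTGG on the other strand). CCAAT is the core of the Y box, but not every match need be a Y box.
HLA-B: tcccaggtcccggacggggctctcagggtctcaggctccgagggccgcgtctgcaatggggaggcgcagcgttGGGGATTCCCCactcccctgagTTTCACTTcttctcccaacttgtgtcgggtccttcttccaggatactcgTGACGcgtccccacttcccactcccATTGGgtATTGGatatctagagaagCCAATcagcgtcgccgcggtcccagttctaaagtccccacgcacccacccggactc
HLA-C: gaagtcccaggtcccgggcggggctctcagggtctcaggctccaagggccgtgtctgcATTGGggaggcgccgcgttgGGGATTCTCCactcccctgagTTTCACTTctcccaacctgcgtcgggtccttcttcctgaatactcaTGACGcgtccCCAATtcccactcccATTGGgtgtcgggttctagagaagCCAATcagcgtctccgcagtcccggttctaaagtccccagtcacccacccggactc
HLA-F: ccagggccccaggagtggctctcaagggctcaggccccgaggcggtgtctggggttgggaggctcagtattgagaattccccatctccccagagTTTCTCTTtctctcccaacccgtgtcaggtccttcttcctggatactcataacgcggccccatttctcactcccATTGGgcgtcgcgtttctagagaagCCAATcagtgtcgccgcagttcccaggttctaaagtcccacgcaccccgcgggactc
TAP1: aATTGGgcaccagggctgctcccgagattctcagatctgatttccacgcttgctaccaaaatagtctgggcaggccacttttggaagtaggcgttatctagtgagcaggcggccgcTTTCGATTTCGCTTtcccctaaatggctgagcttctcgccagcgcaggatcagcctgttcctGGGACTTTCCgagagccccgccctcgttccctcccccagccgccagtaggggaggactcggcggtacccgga
TAP2: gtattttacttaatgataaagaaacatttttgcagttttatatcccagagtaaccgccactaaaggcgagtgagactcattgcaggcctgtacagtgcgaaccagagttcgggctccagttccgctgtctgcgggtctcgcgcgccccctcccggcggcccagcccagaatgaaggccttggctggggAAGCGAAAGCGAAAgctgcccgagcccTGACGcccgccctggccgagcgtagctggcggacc

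The interferon response core was found in all 7 windows, against 20.3% of 35116 promoter windows of the same length. The NF-kB motif was found in 5 of 7 (19.7% of all windows), namely HLA-B, HLA-C, B2M, TAP1 and TAPBP. TGACG was in 4 of 7 (21.2% of all windows), namely HLA-B, HLA-C, B2M and TAP2. CCAAT was in 5 of 7 (32.0% of all windows), namely HLA-B, HLA-C, HLA-F, B2M and TAP1. In TAP1, TAP2, TAPBP and B2M overlapping copies of the interferon core stand in tandem. HLA-B and HLA-C were identical in 89.0% of aligned columns, and HLA-F was identical to HLA-B in 80.4%. The motifs were picked with these sequences in view, and a match is a description of letters, not of a bound site. Whether any motif goes with a call was not tested, and HLA-E and NLRC5 had no window.

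**Figure D1:**
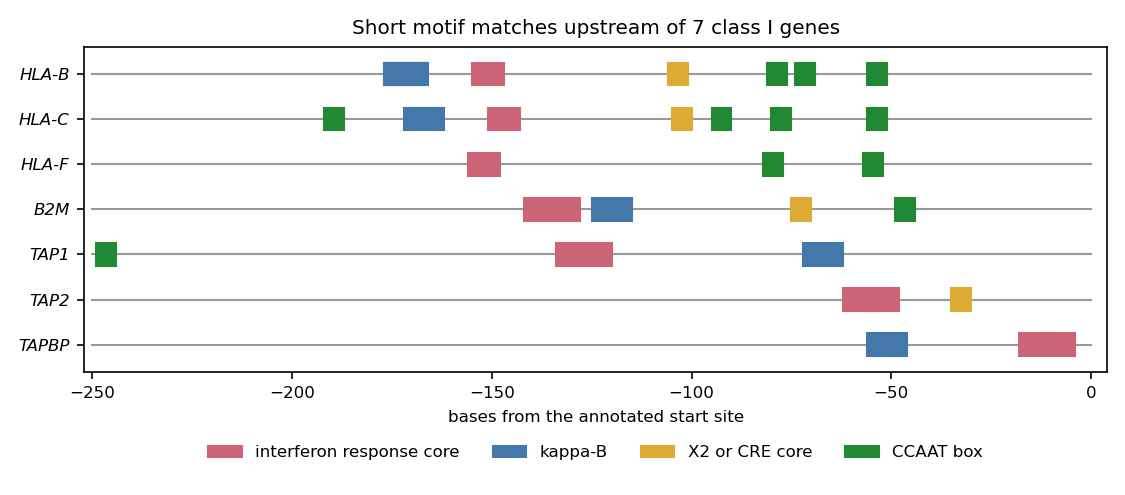
Matches to 4 short motifs in the 250 bases upstream of 7 class I genes, by distance in bases from the annotated start site (0, right edge). Coloured blocks are matches on either strand. All 7 genes hold the interferon response core. An NF-kB match stands in 5 of the 7, TGACG in 4 and CCAAT in 5.

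Library totals lay between 27188074 and 28236773 counts. MAPKAPK5, the siRNA's target, was counted at 29.05 to 35.6 CPM in the controls and at 14.1 to 17.4 CPM after MK5 siRNA (log2 fold change −1.01 ± 0.14, SE, n = 3 per group, edgeR adjusted p = 0.00169). CPM is the count scaled to library size in the usual way, after TMM factors of 0.925 to 1.06. Replicate 1 stood apart from replicates 2 and 3, above all in the controls, where the second principal component (21.0% of the variance) separated it. Of 5 epithelial markers the keratins KRT8 and KRT18 were abundant, EPCAM had no count, and CDH1 and KRT19 had 13 counts or fewer in any library. KRT8 and KRT18 fell after MK5 siRNA (−0.83 and −0.74, edgeR adjusted p = 0.0104 and 0.00363), and the list summed to 753 to 827 CPM in the controls and 387 to 573 CPM after MK5 siRNA. Of 8 retinal pigment epithelium markers RPE65, RLBP1, TYR and TTR had 2 counts or fewer in any library. MITF fell from 54.1 ± 4.08 CPM (−1.09 ± 0.14, edgeR adjusted p = 0.00114) and PMEL from 2.04 ± 0.323 CPM (−1.89 ± 0.27, edgeR adjusted p = 0.00189), BEST1 and LRAT were not called, and the list summed to 54.5 to 62.6 CPM in the controls and 23.9 to 30.7 CPM after MK5 siRNA. Leukocytes are known for high class I levels. Of 8 leukocyte markers LYZ and TYROBP had no count, and LAPTM5 made up most of the rest in the controls. LAPTM5 fell from 20, 81 and 79 counts in the controls to 0, 4 and 3 (−4.70 ± 0.83, edgeR adjusted p = 0.00418). The list summed to 1.07 to 3.50 CPM in the controls and 0.511 to 0.640 CPM after MK5 siRNA. Of 4 endothelial markers 1 had no count, and they summed to 1.66 to 4.98 CPM in the controls and 0.471 to 1.06 CPM after MK5 siRNA. Of 5 fibroblast markers only COL1A1 rose (1.83 ± 0.35, edgeR adjusted p = 0.00605). PDGFRA was not called, and COL1A2, DCN and LUM had 6 counts or fewer in any library. The list, mostly COL1A1, summed to 41.4 to 70.0 CPM in the controls and 133 to 296 CPM after MK5 siRNA. What part these differences have in the results was not tested.

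Of the 9 genes, 3 fell after MK5 siRNA, 6 did not pass the test and none rose. NLRC5 fell 2.82-fold, HLA-F 2.45-fold and TAP2 2.35-fold, while the abundant heavy chains HLA-B, HLA-C and HLA-E, B2M, TAP1 and TAPBP had log2 fold changes between −0.14 and 0.25. Called means an adjusted p below 0.05 in edgeR's quasi-likelihood test, adjusted over all genes tested. By that rule 23.7% of all genes tested were called lower and 22.5% higher, so 3 of 9 lower is near the background and says nothing particular about the set. None rose at an unadjusted p below 0.05 either, and none in DESeq2. The median log2 fold change was 0.01 over the members and 0.00 over all genes tested. All MK5 siRNA libraries lay below all controls in 3 members (29.8% of all genes tested) and above them in 1, TAPBP (30.6% of all genes tested). Fewer transcripts per cell and a smaller share of cells that express a gene cannot be told apart in bulk RNA.

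**Figure D2:**
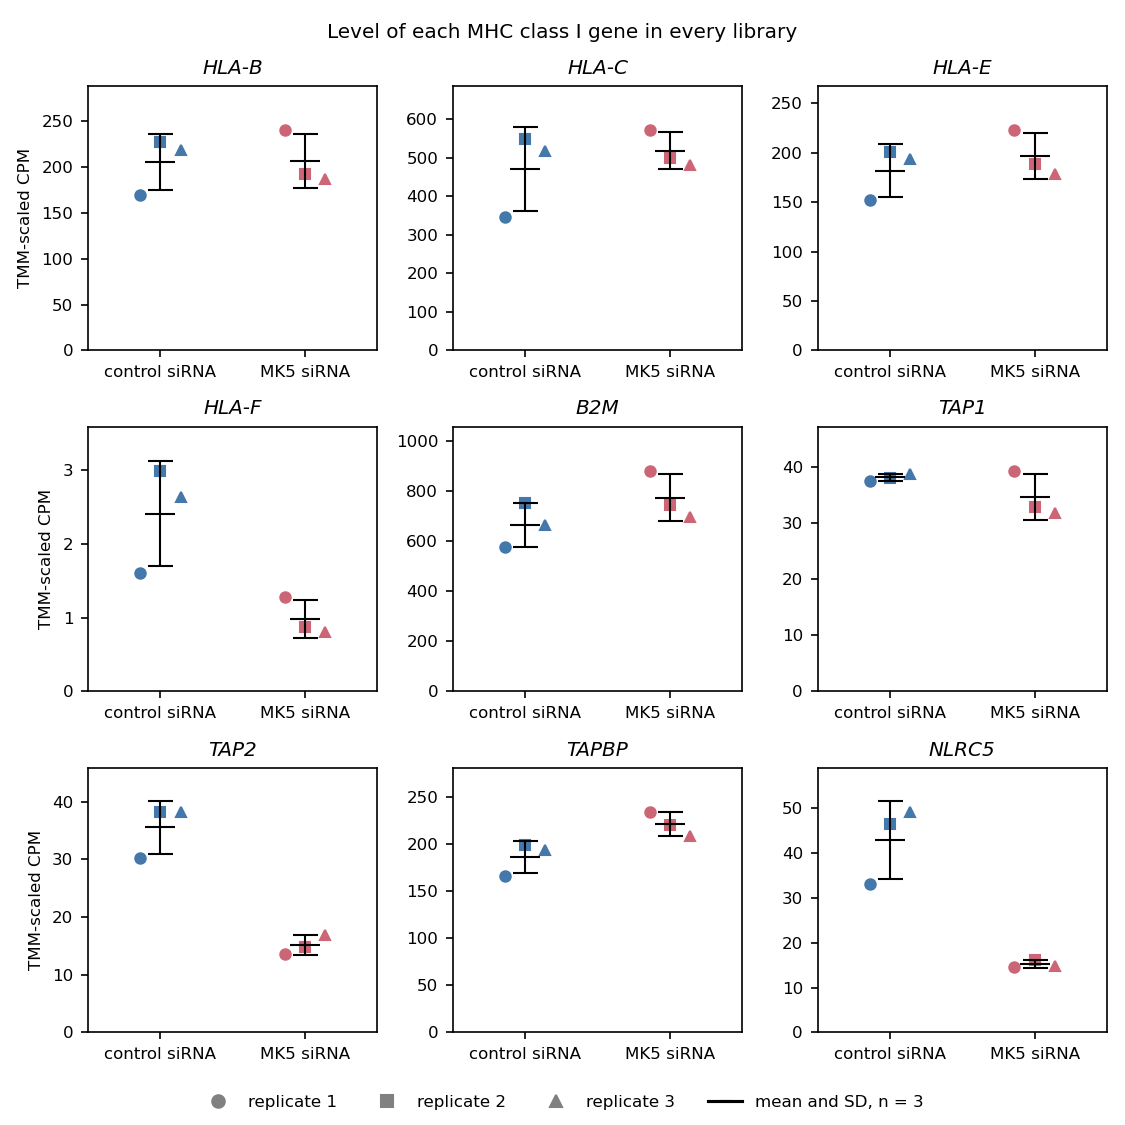
Level of each of the 9 genes in each library, as TMM-scaled CPM on axes that start at 0. Points are libraries, shaped by replicate, and bars are the mean and SD (n = 3). The groups are apart downward in HLA-F, TAP2 and NLRC5, apart upward in TAPBP, and overlap in the other 5 genes. Control replicate 1 is the lowest control in all 9.

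Among the heavy chains, HLA-B, a classical chain, was counted at 169.9, 227 and 219 CPM in control replicates 1, 2 and 3, and at 240.2, 192 and 187 CPM in the MK5 siRNA replicates. The groups overlapped, with replicate 1 the lowest library of the one group and the highest of the other. The mean was 205 ± 30.9 CPM in the controls and 206 ± 29.3 CPM after MK5 siRNA (SD, n = 3). The log2 fold change of HLA-B was 0.01 ± 0.16 (95% interval −0.36 to 0.38, edgeR adjusted p = 0.969). HLA-C, the other classical chain, was at 345, 549 and 516 CPM in the controls and at 571, 500.0 and 482 CPM after MK5 siRNA. Its groups overlapped in the same manner, and its log2 fold change was 0.14 ± 0.19 (95% interval −0.30 to 0.58, edgeR adjusted p = 0.570). HLA-E, the ligand of the NK receptor NKG2A, was at 152, 201 and 193 CPM and at 223, 189 and 178 CPM. Its log2 fold change was 0.11 ± 0.15 (95% interval −0.24 to 0.46, edgeR adjusted p = 0.562). The intervals of these 3 genes reach from a moderate fall to a moderate rise, so the 6 libraries together do not fix a direction.

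HLA-F, the scarcest of the 4 chains, was the only one of them called. It had 42, 81 and 72 counts in control replicates 1, 2 and 3 and 35, 25 and 24 counts after MK5 siRNA, which is 1.61, 2.99 and 2.63 CPM against 1.28, 0.869 and 0.808 CPM. All controls were higher than all MK5 siRNA libraries, with a narrow gap between the replicates numbered 1. The mean of HLA-F was 2.41 ± 0.715 CPM in the controls and 0.985 ± 0.255 CPM after MK5 siRNA, and its log2 fold change was −1.29 ± 0.33 (95% interval −2.07 to −0.51, edgeR adjusted p = 0.0178). The call was lost when control replicate 2 (−1.12, edgeR adjusted p = 0.0575) or 3 (−1.24, 0.0511) was left out, and likewise MK5 siRNA replicate 2 (−1.20, 0.0768) or 3 (−1.16, 0.0767). Reads of HLA-F may be split with relatives: 41.7% of the 50-base words of its longest coding transcript also occur in transcripts of other genes (GENCODE 29, GRCh38). The same share was 21.0% in HLA-B, 6.71% in HLA-C and 5.76% in HLA-E, and how the authors' counting treated such reads was not tested. The 4 chains summed to 668, 979.9 and 930.3 CPM in the controls and to 1036, 881 and 848 CPM after MK5 siRNA. That sum does not depend on how reads are split among the 4, and its groups overlapped. It does depend on reads that were discarded or counted in other genes. HLA-F is too small a part of the sum for its own change to show there.

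B2M encodes beta-2 microglobulin, the invariant light chain that every class I heavy chain needs to fold. It was at 578, 753 and 666 CPM in the controls and at 879, 745 and 697 CPM after MK5 siRNA. The 2 lowest MK5 siRNA libraries lay within the controls' range, and only replicate 1 lay above it. The mean was 666 ± 87.5 CPM and 774 ± 94.6 CPM, with a log2 fold change of 0.22 ± 0.14 (95% interval −0.12 to 0.56, edgeR adjusted p = 0.251). None of its 50-base words occur in another gene. Within a library, B2M counts were 0.865, 0.768 and 0.716 times those of the 4 heavy chains in the controls, and 0.849, 0.845 and 0.822 times after MK5 siRNA (exact permutation test, two-sided, p = 0.4).

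Of the chains of the peptide transporter, TAP2 fell and TAP1 was not called. TAP1 was at 37.5, 38.1 and 38.8 CPM in the controls and at 39.3, 32.8 and 31.7 CPM after MK5 siRNA. The highest and the lowest library of all 6 were both MK5 siRNA libraries, and the log2 fold change of −0.14 ± 0.12 (95% interval −0.42 to 0.14) was not called (edgeR adjusted p = 0.365). TAP2 was at 30.2, 38.2 and 38.1 CPM in the controls and at 13.6, 14.8 and 17.0 CPM after MK5 siRNA. Every MK5 siRNA library was thus well below every control. The mean of TAP2 was 35.5 ± 4.59 CPM in the controls and 15.1 ± 1.70 CPM after MK5 siRNA, and its log2 fold change was −1.23 ± 0.15 (95% interval −1.59 to −0.88, edgeR adjusted p = 0.00108). It was called under all 17 alternatives, between −1.33 and −1.13. Within a library, the counts of TAP2 were 0.805, 1.00 and 0.983 times those of TAP1 in the controls and 0.346, 0.450 and 0.534 times after MK5 siRNA. This ratio is free of library scaling and did not overlap between groups. An exact permutation test, two-sided, gave p = 0.1, the smallest that 3 against 3 allows (adjusted p = 0.15 over 6 ratios). The ratio restates the fold changes of both genes, already known, and is no separate support. By the same permutation test HLA-F over HLA-B gave p = 0.1 and TAPBP over HLA-B gave p = 0.2. Another gene annotated on the same strand in GENCODE 29 overlaps the exons of TAP2, and 35.8% of the 50-base words of TAP2 are found in other genes. For TAP1 the share was 15.2%.

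TAPBP encodes tapasin, which bridges the heavy chain to the transporter and edits the peptides it binds. It was at 166, 198 and 194 CPM in the controls and at 234, 220.02 and 209 CPM after MK5 siRNA. All MK5 siRNA libraries lay above all controls, but the distance was small beside the spread. The log2 fold change of 0.25 ± 0.11 (95% interval −0.02 to 0.51) was not called (edgeR adjusted p = 0.109).

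NLRC5, the class I transactivator, had the largest log2 fold change of the 9. It had 33.0, 46.5 and 49.2 CPM in the controls and 14.6, 16.2 and 14.8 CPM after MK5 siRNA. The MK5 siRNA libraries were close to each other and far below every control. The mean was 42.9 ± 8.65 CPM and 15.2 ± 0.887 CPM, and the log2 fold change was −1.50 ± 0.17 (95% interval −1.91 to −1.09, edgeR adjusted p = 0.000913). No 50-base word of NLRC5 is shared with another gene. It was called under all 17 alternatives, between −1.65 and −1.37. NLRC5 counts were 0.194, 0.205 and 0.225 times those of HLA-B in the controls and 0.0606, 0.0845 and 0.0791 times after MK5 siRNA (exact permutation test, two-sided, p = 0.1, adjusted p = 0.15 over 6 ratios). The ranges of that ratio did not overlap between the groups, which restates the fold changes of both genes. The windows of HLA-B and HLA-C shown above hold TGACG and CCAAT, the letters of the X2 and Y parts of the module through which NLRC5 acts.

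**Figure D3:**
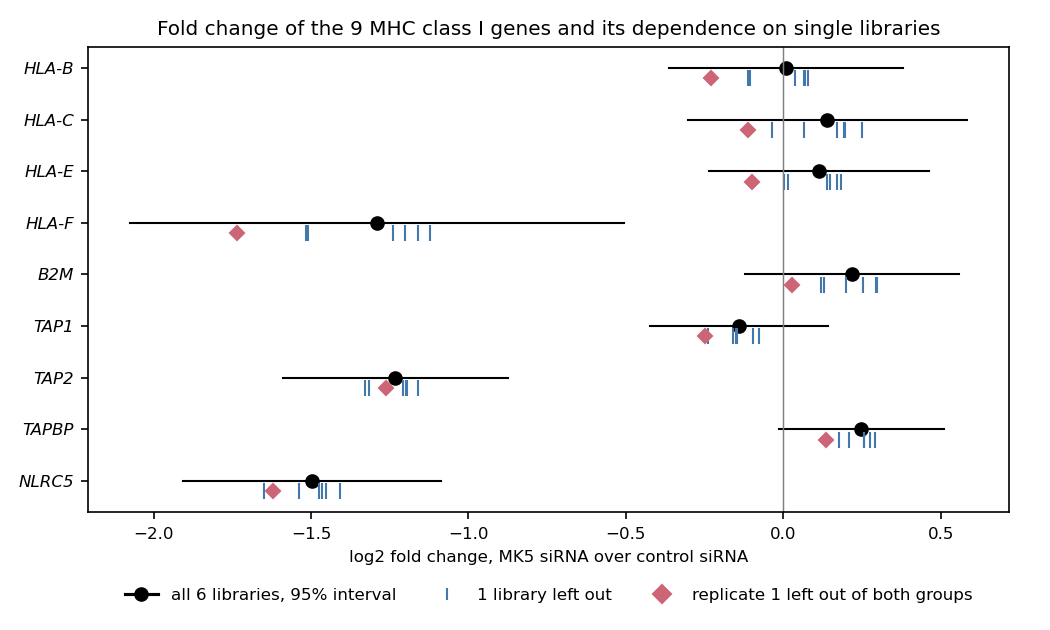
Log2 fold change of each gene, MK5 siRNA over control siRNA. Black points and lines are the estimate and its 95% interval over all 6 libraries, blue ticks the estimates with 1 library left out, and red diamonds those with replicate 1 left out of both groups. The estimates of NLRC5, TAP2 and HLA-F lie below −1 in every fit drawn, and the diamonds of HLA-B, HLA-C and HLA-E lie below 0.

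Most members that were not called moved one way in replicate 1 and another in replicates 2 and 3. Control replicate 1 was the lowest control in all 9 members, as it was in 45.6% of all genes tested, and MK5 siRNA replicate 1 was the highest of its group in 7 (44.0% of all genes tested). Without replicate 1 in both groups, HLA-B fell by 0.23 (edgeR adjusted p = 0.00131), TAP1 fell by 0.25 (edgeR adjusted p = 0.00498) and TAPBP rose by 0.13 (edgeR adjusted p = 0.0439). The log2 fold changes of NLRC5, TAP2 and HLA-F were −1.62, −1.26 and −1.74 in that fit. HLA-C and HLA-E were at −0.11 and −0.10 and B2M at 0.03, none of them called. In that fit 5 members fell and 1 rose, while 37.8% of the 13690 genes it tested fell and 37.9% rose. Within replicate pair 1 the changes of HLA-B, HLA-C, HLA-E and B2M were 0.50, 0.73, 0.55 and 0.61 in log2(CPM + 0.5). Within pairs 2 and 3 they lay between −0.24 and 0.07. The changes of TAP2 were −1.12, −1.34 and −1.15 in pairs 1, 2 and 3, and those of NLRC5 were −1.15, −1.49 and −1.70.

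Levels can be set between genes only per length. Divided by the kilobases of all annotated exons (GENCODE 29), the control level was highest in HLA-C at 187 ± 43.7 CPM per kb, then B2M at 109.5 ± 14.4. HLA-B at 67.3 ± 10.1 and HLA-E at 61.1 ± 8.89 followed, and their ranges overlapped. TAPBP stood at 36.8 ± 3.40, TAP1 at 7.94 ± 0.131, TAP2 at 5.56 ± 0.718, NLRC5 at 3.46 ± 0.699 and HLA-F at 0.555 ± 0.165, with no other overlap between neighbours. With the length of the longest coding transcript instead, B2M (390.4 ± 51.3) had a higher mean than HLA-C (302 ± 70.4), but their ranges overlapped. HLA-B (133 ± 20.0) and HLA-E (69.9 ± 10.2) no longer overlapped on that scale. TAP2 (6.25 ± 0.807) and NLRC5 (6.29 ± 1.27) could not be ordered. What part the reads shared with other genes have in this order was not tested.

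The proteasome subunits and peptidases that make class I peptides were next. Of 7 genes of the immunoproteasome and of peptide trimming, 6 fell and 1 rose, where 23.7% of all genes fell and 22.5% rose. The counts were the same without replicate 1 in both groups, where 37.8% of all genes fell and 37.9% rose. Their median log2 fold change was −0.94, against 0.00 over all genes. PSMB9, the immunoproteasome's beta-1i subunit, was at 14.1, 18.5 and 16.2 CPM in the controls and at 4.12, 4.56 and 4.58 CPM after MK5 siRNA. Its log2 fold change of −1.88 ± 0.17 (edgeR adjusted p = 0.000392) was called under all 17 alternatives. PSMB10, the beta-2i subunit, fell from 15.1 ± 3.24 to 5.28 ± 0.891 CPM (−1.51 ± 0.23, edgeR adjusted p = 0.00222). PSMB8, the beta-5i subunit, was at 37.2, 74.0 and 83.8 CPM in the controls and at 39.4, 34.4 and 34.9 CPM after MK5 siRNA. Its groups overlapped through control replicate 1, and its fall of −0.84 ± 0.28 (edgeR adjusted p = 0.0466) was called under only 6 of 17 alternatives. It was lost with the replicate block (−0.77, edgeR adjusted p = 0.0983), and without any 1 library other than control replicate 1 (−0.90 to −0.63, edgeR adjusted p 0.101 to 0.133). PSME2 and PSME1 encode the PA28 proteasome activator. The level of PSME2 went from 103 ± 2.41 to 53.9 ± 1.83 CPM (−0.94 ± 0.09, edgeR adjusted p = 0.00053). That of PSME1 went from 194 ± 9.24 to 125 ± 7.93 CPM (−0.63 ± 0.10, edgeR adjusted p = 0.00275). Of the aminopeptidases that trim peptides in the endoplasmic reticulum, ERAP2 fell by 0.94 ± 0.25 and ERAP1 rose by 0.43 ± 0.10 (edgeR adjusted p = 0.0186 and 0.0123). ERAP1 was not called without control replicate 3 or without MK5 siRNA replicate 2 or 3 (0.41 to 0.42, edgeR adjusted p 0.0504 to 0.0631). ERAP2 was not called without those or without MK5 siRNA replicate 1 (−1.01 to −0.78, edgeR adjusted p 0.0531 to 0.0607).

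TAP2, PSMB8, TAP1 and PSMB9 are consecutive protein-coding genes in RefSeq's order on chromosome 6, and TAP1 and PSMB9 start back to back. TAP2 and PSMB9, at the ends of that row, had log2 fold changes of −1.23 and −1.88. Between them PSMB8 was at −0.84, called under only 6 of 17 alternatives, and TAP1 was not called with all libraries. Without replicate 1 in both groups TAP1 fell by 0.25 (edgeR adjusted p = 0.00498). PSMB9 counts were 0.376, 0.485 and 0.418 times those of TAP1 in the controls and 0.105, 0.139 and 0.144 times after MK5 siRNA (exact permutation test, two-sided, p = 0.1, adjusted p = 0.15 over 6 ratios). The groups did not overlap in this ratio either, which again restates the fold changes of both genes.

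Among 4 endoplasmic reticulum chaperones of class I loading, 2 rose and none fell, where 22.5% of all genes tested rose and 23.7% fell. CALR, a lectin chaperone, had 1096 ± 298 CPM in the controls and 1914 ± 302 CPM after MK5 siRNA (0.80 ± 0.23, edgeR adjusted p = 0.0264). CANX, calnexin, had 774 ± 131 and 1105 ± 149 CPM (0.51 ± 0.16, edgeR adjusted p = 0.0381). Both fold many other glycoproteins too. CALR was not called without MK5 siRNA replicate 2 or 3 (0.78 and 0.72, edgeR adjusted p = 0.0801 and 0.0881). CANX was not called with the replicate block (0.52, edgeR adjusted p = 0.0802), nor without any 1 of the replicates numbered 2 or 3 (0.40 to 0.46, edgeR adjusted p 0.124 to 0.146). The other 2 genes, PDIA3 and TAPBPL, did not pass with all libraries. Without replicate 1 in both groups, 2 rose and 2 fell, where 37.9% of all genes rose and 37.8% fell. CANX was then at 0.77.

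Of 8 proteins of the complex on the SXY module, 2 fell and none rose. RFX5, the DNA-binding RFX subunit, was at 47.1, 66.8 and 67.2 CPM in the controls and at 27.8, 30.8 and 31.5 CPM after MK5 siRNA, and its log2 fold change was −1.01 ± 0.16 (edgeR adjusted p = 0.00298). NFYA, the subunit of NF-Y that reads CCAAT, fell from 45.9 ± 3.33 to 28.6 ± 0.927 CPM (−0.68 ± 0.11, edgeR adjusted p = 0.00259). The median of the list was −0.36. Without replicate 1 in both groups 5 of the 8 fell, where 37.8% of all genes fell against 23.7% with all libraries.

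Genes of interferon signalling went in both directions. Of 19 genes listed, 15 could be tested, of which 2 fell, 3 rose and 10 did not pass. Over all genes tested, 23.7% fell and 22.5% rose. Without replicate 1 in both groups 2 of the 15 fell and 4 rose, where 37.8% of all genes fell and 37.9% rose. IRF1, the factor that binds interferon response elements in class I genes, was at 67.9, 70.6 and 71.7 CPM in the controls and at 33.7, 33.9 and 32.0 CPM after MK5 siRNA. The libraries of each group lay close together, and the log2 fold change was −1.08 ± 0.09 (edgeR adjusted p = 0.000388). SOCS1, a feedback inhibitor of JAK kinases, fell from 2.20 ± 0.645 to 0.529 ± 0.207 CPM (−2.05 ± 0.38, edgeR adjusted p = 0.00526). IFNAR1, a chain of the type I interferon receptor, rose by 0.57 ± 0.10, STAT2 by 0.56 ± 0.11 and the kinase gene TYK2 by 0.37 ± 0.10 (edgeR adjusted p from 0.00418 to 0.0202). TYK2 was not called without control replicate 2 or MK5 siRNA replicate 2 or 3 (0.33 to 0.37, edgeR adjusted p 0.0814 to 0.0917). IFNB1 and IFNG, the interferon genes themselves, had no count in any library, which allows up to 0.115 CPM in the library of the highest limit (3 counts). Counting limits of this kind cover sampling error only.

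Of the 5 NF-kB subunit genes and NFKBIA, their inhibitor, 3 rose and none fell, where 22.5% of all genes tested rose and 23.7% fell. NFKB2, the precursor of the p52 subunit, was at 74.4, 62.3 and 60.8 CPM in the controls and at 198, 156 and 154 CPM after MK5 siRNA (1.36 ± 0.15, edgeR adjusted p = 0.000723). RELB, the partner of p52, rose by 1.60 ± 0.32 and REL by 1.06 ± 0.27 (edgeR adjusted p = 0.00663 and 0.0161). REL was not called without control replicate 3 (0.94, edgeR adjusted p = 0.0591). RELA and NFKB1, which form the classical dimer, were at 0.28 ± 0.15 and 0.19 ± 0.12 and did not pass. Without replicate 1 in both groups 5 rose and none fell, where 37.9% of all genes rose. RNA levels give no measure of protein or of binding to the promoters shown above.

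**Figure D4:**
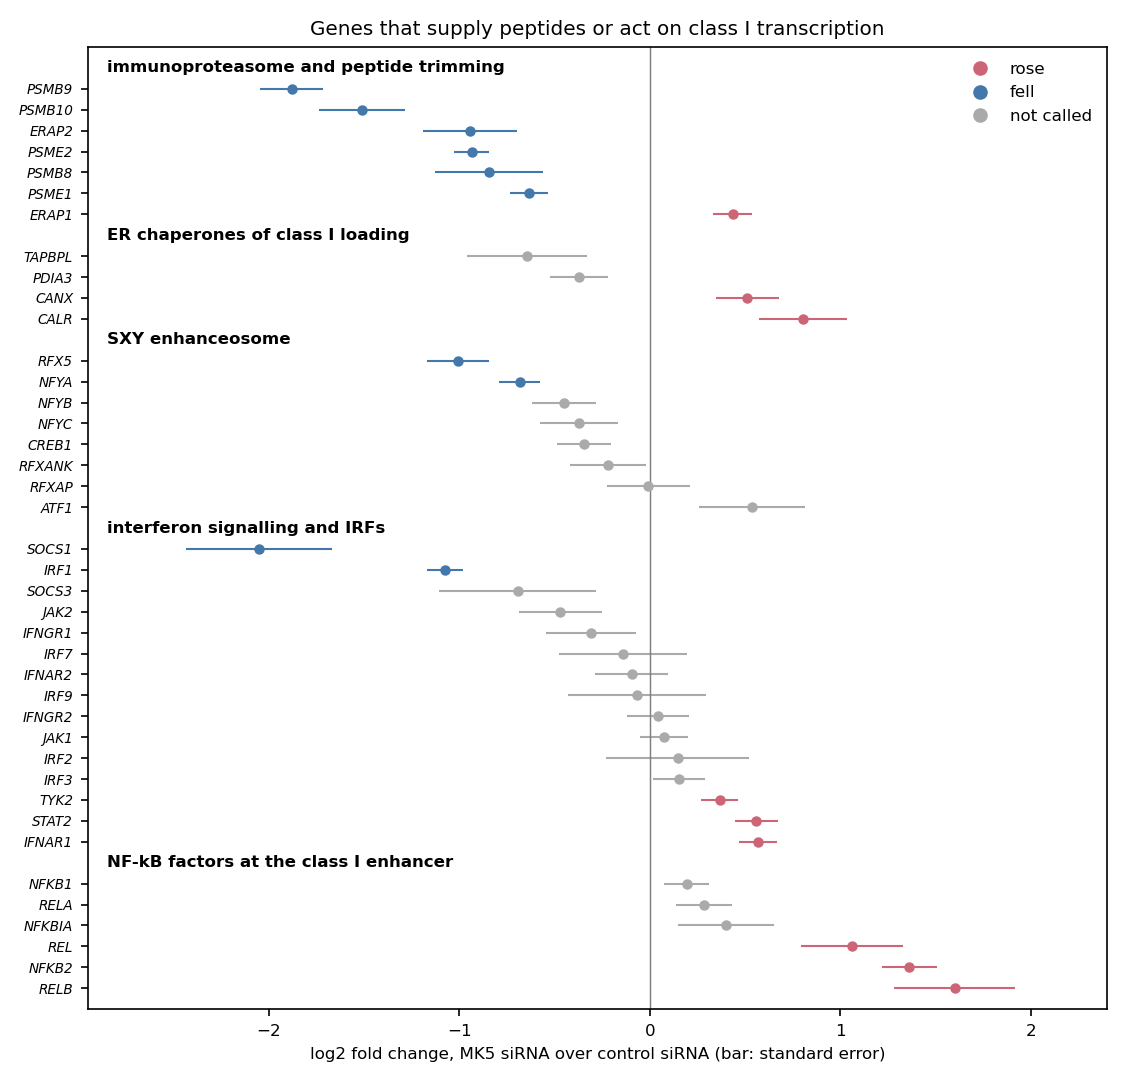
Log2 fold change, MK5 siRNA over control siRNA, with its standard error, for the tested genes of 5 lists that supply class I peptides or act on class I transcription. Red points rose, blue points fell and grey points were not called at an adjusted p below 0.05. Immunoproteasome genes lie left of 0 and NF-kB genes right of it, and 3 NF-kB points are grey.

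For 4 members the genes whose levels ran most alike over the 6 libraries were taken from 10481 genes of at least 5 CPM, by Pearson's r of log2(CPM + 0.5). With so few libraries many genes reach a high r, and all share library and depth. The nearest to HLA-B were CDC42BPB (r = 0.990), EDIL3 and MAPK6, to B2M PRMT9 (r = 0.983), PROSER1 and NHSL1, and to TAP1 LZTS2 (r = 0.989), BMPR1A and ADAMTS7. NLRC5 ran nearest to THY1 (r = 0.999), CAP1 and NMT1, 3 genes that also fell (−2.18, −0.83 and −1.04). An r above 0.95 was reached by 20 genes for HLA-B and by 864 for NLRC5.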

How the data were processed

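RNA-seq counts of 6 libraries were analysed. The deposited values are whole-number counts per gene although the table is named for CPM, since each library has its own total. Per the submitters' processing notes, FastQC, Trimmomatic 0.36, TopHat2 2.1.1, HTSeq 0.9.1 and GRCh37 were used. The annotation release, strand setting and handling of multiply aligned reads were not given in the sources used here, so reads of overlapping genes or close relatives cannot be told apart. Of 50 rows with a member's symbol, 41 had no count (further identifiers, as the reference holds several MHC haplotypes), and the row of highest mean was taken.

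Genes were kept by filterByExpr of edgeR 4.0.16 (R 4.3.3), with a least count of 10 and a least total of 15. Counts were scaled by TMM, and MK5 siRNA was tested against control siRNA over the whole table by edgeR's quasi-likelihood test without a block, with Benjamini-Hochberg adjustment and a two-sided threshold of 0.05. The standard error is the log2 fold change over the root of F. Intervals are 95%. As a check of the code, the fit was run on simulated counts with less spread and fewer changed genes than these data. That run does not measure how reliable the calls are here. Alternatives were other scalings and filters, DESeq2 1.42.0, limma 3.58.1, a replicate block and left-out libraries. The members, lists and rule for named genes (all members, then up to 6 called genes per list with the smallest adjusted p, and some set genes) were chosen with earlier results of these data known. PDIA3, TAPBPL, RELA, NFKB1, IFNB1, IFNG, MICA, HLA-G, CD74 and HLA-DRA fall outside that rule and were named after their values were seen. A gene of the interferon list is not reported here.

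Deviations from group means correlated across genes at 0.258, 0.206 and 0.248 between equal replicate numbers, so the numbers were taken as pairs. Control 3 with MK5 siRNA 2 gave 0.182 and control 2 with MK5 siRNA 3 gave 0.151, so replicates 2 and 3 are hardly told apart, and replicate 1 against the others gave −0.263 to −0.208. The pairing is read from the data, not the labels.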

Additional observations from a re-analysis of the deposited data

How the results depend on the processing

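The falls of NLRC5, TAP2, PSMB9, PSMB10, PSME1, PSME2, RFX5, NFYA and IRF1 kept their direction and call under all 17 alternatives. HLA-F kept its direction in the 16 that tested it. A mean of at least 5 CPM left it out. With 1 library left out, between 2064 and 4455 genes rose and between 2103 and 4419 fell, against 3020 and 3186 with all. Without replicate 1 in both groups 5195 rose and 5177 fell, with 1 member rising and 5 falling, where all libraries gave 0 and 3. With it gone HLA-B was at −0.23, HLA-C at −0.11 and HLA-E at −0.10, all on the other side of 0. With 1 library left out HLA-B lay between −0.11 and 0.079, negative when replicate 1 of either group was gone, and HLA-C between −0.036 and 0.25, negative only when control replicate 1 was gone. The cause was not tested. Library totals alone moved the median of all genes to 0.10 and turned no member. With the replicate block 3154 genes rose and 3205 fell, 0 and 3 of them members, and beside PSMB8 and CANX no call changed among the members and the genes named by the rule. The tested genes named outside it were fitted under the alternatives too, but their estimates there are not given gene by gene. A pseudocount of 2 in limma put HLA-F at −0.55, as it shrinks low genes by its construction. HLA-F is limited by its depth of 24 to 81 counts.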

Other observations

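Class I-like genes and the ligands of the NK receptor NKG2D were also measured. Of 10 listed, 8 could be tested, of which 2 rose, 2 fell and 4 did not pass. Over all genes tested, 22.5% rose and 23.7% fell. Without replicate 1 in both groups 4 of the 8 rose and 3 fell, where 37.9% of all genes rose and 37.8% fell. MICB, a stress-induced ligand, was at 98.5, 44.1 and 44.0 CPM in control replicates 1, 2 and 3 and at 27.9, 20.2 and 18.7 CPM after MK5 siRNA (log2 fold change −1.48 ± 0.35, edgeR adjusted p = 0.0132). Leaving out MK5 siRNA replicate 2 or 3 ended its call (−1.41 and −1.37, edgeR adjusted p = 0.0548 and 0.0553). Without control replicate 1, its highest library, it was at −0.98 (edgeR adjusted p = 0.00114). Its neighbour MICA was at 0.08 ± 0.21 (edgeR adjusted p = 0.759). ULBP2, another ligand of the same receptor, rose from 11.0 ± 2.57 to 24.9 ± 2.48 CPM (1.17 ± 0.19, edgeR adjusted p = 0.00315). ULBP1 rose by 1.14 ± 0.30 from 0.611 ± 0.168 CPM (edgeR adjusted p = 0.0205), a call lost without any 1 of the replicates numbered 2 or 3 (1.00 to 1.12, edgeR adjusted p 0.0783 to 0.0898). FCGRT, the heavy chain of the neonatal Fc receptor, which also pairs with B2M, fell from 12.7 ± 1.54 to 4.71 ± 1.67 CPM (−1.43 ± 0.27, edgeR adjusted p = 0.00532). HLA-G had 2 counts or fewer in every library.

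MHC class II genes were scarce, and only 2 of 10 could be tested with all libraries. Without replicate 1 in both groups 4 were tested, of which 3 fell and 1 rose. In that fit 37.8% of all genes fell and 37.9% rose. CIITA, the class II transactivator and a relative of NLRC5, was at 6.93, 5.97 and 7.28 CPM in the controls and at 0.438, 2.19 and 2.22 CPM after MK5 siRNA (−2.05 ± 0.52, edgeR adjusted p = 0.0168). HLA-DMA, a chain of the class II peptide exchange factor, had 1.60 ± 0.581 CPM in the controls and 3.22 ± 0.222 CPM after MK5 siRNA (1.00 ± 0.31, edgeR adjusted p = 0.0348). It was not called without control replicate 2 or any 1 of the MK5 siRNA replicates (0.97 to 1.06, edgeR adjusted p 0.0706 to 0.103). CD74, the invariant chain, had 5, 43 and 49 counts in the controls and 1 count in each MK5 siRNA library, too few in control replicate 1 to enter the test. HLA-DRA had 3, 15 and 25 counts in the controls and 1, 3 and 2 after MK5 siRNA.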
